A study of Mus musculus with 6 samples.

Results

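The 9 genes described here encode peroxisomal fatty acid oxidation proteins, and most are textbook targets of the nuclear receptor PPARA. They are *Ehhadh*, *Hsd17b4*, *Acaa1a*, *Acaa1b*, *Acot3*, *Acot4*, *Crot*, *Abcd3* and *Pex11a*. They were chosen by gene symbol, each matched 1 row of the 25403 genes listed, and all 9 were among the 14496 genes with enough counts to be tested. The livers came from WT mice, labelled C57BL6/J, and from mice with whole-body ablation of *Themis*, whose product acts in T cell receptor signaling, 3 livers of each genotype. Both genotypes had been fed a MASH (metabolic dysfunction–associated steatohepatitis) diet for 3 months from an age of 10 to 12 weeks, in which fat gave 40% and fructose 20% of the energy and cholesterol made up 2%. No chow-fed liver was part of the comparison, so each difference is one between genotypes on this diet. The knockout removes the gene from all cell types, and each library is bulk poly(A) RNA of whole liver. The labels give no sex, and the study's text describes the mice fed for this time as male.

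Peroxisomes shorten very long chain, branched and dicarboxylic fatty acids that mitochondria handle poorly. In their beta-oxidation spiral a double bond is introduced with the release of hydrogen peroxide, a multifunctional enzyme hydrates and dehydrogenates the product, and a thiolase releases acetyl-CoA. Fatty acids enter the organelle as CoA esters through ABCD transporters, and leave it as free acids made by acyl-CoA thioesterases or as carnitine esters passed on to mitochondria. PPARA, bound to DNA with RXR at direct repeats of the hexamer AGGTCA, is activated by fatty acids and by fibrate drugs, and in rodent liver its activation raises many of these genes together with peroxisome number.

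The libraries held between 20679642 and 25649767 estimated counts. Expression is given as CPM, the counts of a gene over those of its library after scaling by the trimmed mean of M values (TMM). A gene was called where the quasi-likelihood test of edgeR gave a p under 0.05 after Benjamini-Hochberg adjustment over all 14496 genes. *Themis* itself (chr10:28668360-28883818) had 8.07, 25.6 and 12.0 CPM in the WT-labelled livers and 8.63, 7.74 and 9.97 CPM in the *Themis*-KO-labelled livers. WT 1 lay within the range of the KO-labelled livers (log2 fold change −0.79, SE 0.38, edgeR adjusted p = 0.199), so the counts of this gene did not check the labels. Which part of the gene the knockout lacks is not given in the sources used here. WT 1 and WT 2 also stood apart from the other 4 livers in the mitochondrial gene *mt-Nd3* and its nuclear copy *Gm28438*, where the nuclear copy held 96.6% and 96.8% of the sum, against 2.2% to 3.26% elsewhere. This split, called the mitochondrial type, is partly confounded with genotype.

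Of the 9 genes, 1 was called lower in the KO-labelled livers and 0 higher, beside 4.14% of all genes tested called lower and 4.97% called higher. At an unadjusted p under 0.05 in edgeR, 2 of the 9 genes were lower, beside 13.9% of all genes tested, and 0 higher, beside 2438 of the 14496 genes. A negative log2 fold change was found for 8 of the 9 genes and for 49.0% of all genes tested. The called gene was the thiolase gene *Acaa1a*, at 71.0% of its WT level. *Abcd3*, *Acot3* and *Acot4* had WT-relative levels between 58.5% and 74.7%, none of them called, and the other 5 genes lay between 86.6% and 107.7%. The median log2 fold change of the 9 genes was −0.21, beside 0.0095 for all genes tested, and it was −0.094 without WT 2 and −0.35 without WT 3. *Acaa1a* was also the only 1 of the 9 with every KO-labelled liver below every WT-labelled liver, an arrangement found in 16.9% of all genes tested. The call of *Acaa1a* was lost when WT 1, WT 2, KO 1 or KO 2 was left out, and without KO 3 the number of genes called lower was 2, *Acaa1a* and *Abcd3*.

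**Figure D1:**
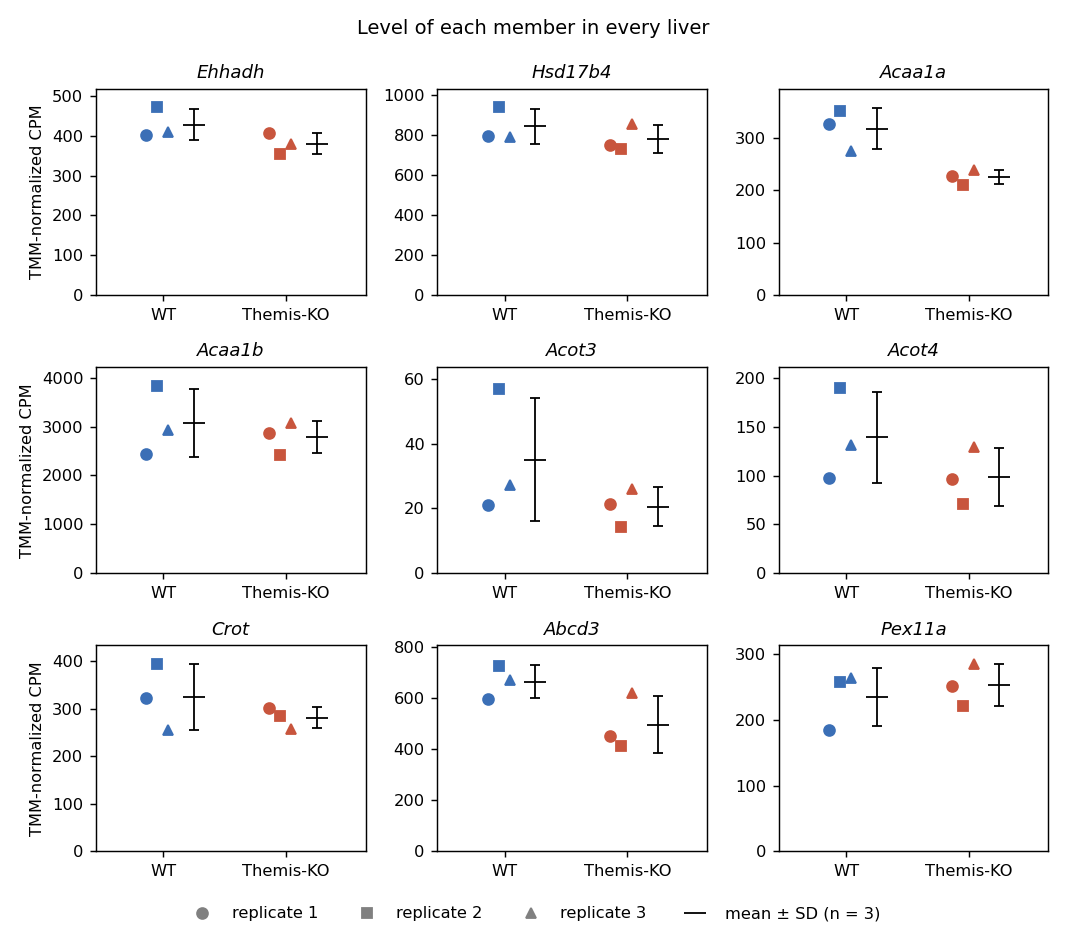
TMM-normalized CPM of the 9 genes in each liver, with a linear axis from 0 in every panel. Symbols are single livers by replicate number, and bars are the mean ± SD (n = 3). *Acaa1a* is the panel in which the genotypes do not overlap, and WT 2 is the highest liver in 8 of the 9 panels.

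Levels were compared between the genes after division by the length of the longest protein-coding transcript in GENCODE vM21. In WT-labelled livers *Acaa1b* had the highest level, 1816.5 CPM per kb, followed by *Hsd17b4* at 313 and *Abcd3* at 191 CPM per kb. *Acaa1a* at 181, *Ehhadh* at 144, *Crot* at 108 and *Pex11a* at 105 CPM per kb came next, and *Acot4* at 22.4 and *Acot3* at 10.2 CPM per kb were the lowest. Neighbours in this order whose WT livers overlapped were *Abcd3* and *Acaa1a*, *Acaa1a* and *Ehhadh*, *Crot* and *Pex11a*, and *Acot4* and *Acot3*. Divided by the length of all annotated exons instead, *Acaa1a* stood at 72.1 CPM per kb, below *Ehhadh* at 144, *Abcd3* at 101 and *Pex11a* at 73.7 CPM per kb. The spread between livers of 1 genotype was narrow for *Ehhadh* and *Hsd17b4*, with a coefficient of variation of 9.18% and 10.2% in WT, and wide for the thioesterases, with 54.2% for *Acot3* and 33.4% for *Acot4*.

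The import of fatty acids was represented by *Abcd3* (chr3:121758774-121815302, minus strand), which encodes a peroxisomal membrane transporter for branched-chain, dicarboxylic and bile acid precursor CoA esters. *Abcd3* had 596, 726 and 673 CPM in the WT-labelled livers and 454, 414 and 623 CPM in the KO-labelled livers. KO 1 and KO 2 lay below every WT-labelled liver, whereas KO 3 lay between WT 1 and WT 3. The log2 fold change was −0.42 (SE 0.16, 95% interval −0.80 to −0.044) and the edgeR adjusted p was 0.13. Without KO 3 the log2 fold change was −0.63 and the edgeR adjusted p was 0.00914, in a fit that called 2039 genes lower over the whole table.

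*Ehhadh* and *Hsd17b4* encode the multifunctional enzymes of the middle of the spiral. EHHADH, one of the classic PPARA-induced proteins of rodent liver, handles straight-chain and dicarboxylic substrates, and HSD17B4, the D-bifunctional protein, is also needed for branched chains and bile acid precursors. *Ehhadh* (chr16:21761287-21787807, minus strand) had 401, 473 and 410 CPM in WT and 408, 354 and 379 CPM in the KO-labelled livers, and the genotypes overlapped through KO 1. Its log2 fold change was −0.17 (SE 0.10, 95% interval −0.41 to 0.068, edgeR adjusted p = 0.296). *Hsd17b4* (chr18:50128201-50196269, plus strand) had 793, 940 and 791 CPM in WT and 749, 728 and 856 CPM in the KO-labelled livers. KO 3 exceeded WT 1 and WT 3, and the log2 fold change was −0.11 (SE 0.11, 95% interval −0.37 to 0.15, edgeR adjusted p = 0.518). The intervals of both genes reach no lower than −0.41, so a fall to below 75.5% of WT for *Ehhadh* or 77.2% for *Hsd17b4* lay outside the 95% interval. Without WT 2 the log2 fold changes of *Ehhadh* and *Hsd17b4* were −0.094 and −0.029.

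The log2 ratio of *Ehhadh* to *Hsd17b4* CPM within a liver, which does not depend on library scaling, was −0.984, −0.990 and −0.948 in WT. In the KO-labelled livers it was −0.875, −1.04 and −1.17, so that these livers lay on both sides of WT. The difference in mean was −0.0551 (exact two-sided permutation test, p = 0.7, where the smallest p that 3 livers against 3 allow is 0.1). With each liver left out in turn, its sign turned only without KO 3 (0.0172), and the most negative value was −0.132 without KO 1.

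*Acaa1a* and *Acaa1b* encode the peroxisomal 3-ketoacyl-CoA thiolases, which carry out the last step of the spiral. Both lie on chromosome 9, *Acaa1a* at chr9:119339676-119350299 on the plus strand and *Acaa1b* at chr9:119148023-119157093 on the minus strand. *Acaa1a* had 327, 352 and 275 CPM in the WT-labelled livers and 228, 211 and 239 CPM in the KO-labelled livers. All 3 KO-labelled livers lay below the lowest WT-labelled liver, WT 3. *Acaa1a* fell by 0.49 on the log2 scale (SE 0.11, 95% interval −0.75 to −0.23, edgeR adjusted p = 0.0402). With the mitochondrial type as covariate, where WT 3 is the only WT-labelled liver of its type, the log2 fold change of *Acaa1a* was −0.28 (edgeR adjusted p = 0.495).

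*Acaa1b*, the more abundant of the thiolase genes, had 2448, 3827 and 2929 CPM in WT and 2873, 2420 and 3071 CPM in the KO-labelled livers. WT 1 and KO 2 were the low livers and WT 2 the high liver, and the genotypes overlapped throughout. The log2 fold change was −0.14 (SE 0.18, 95% interval −0.55 to 0.27, edgeR adjusted p = 0.623), and without WT 2 it was 0.049. *Acaa1b* made up 88.2%, 91.6% and 91.4% of the summed CPM of both thiolase genes in WT and 92.6%, 92.0% and 92.8% in the KO-labelled livers. Every KO-labelled liver lay above every WT-labelled liver in this share, with a difference in mean of 2.07 percentage points (p = 0.1 by the exact permutation test, the smallest it can give). Without WT 1 the difference was 0.975 percentage points.

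The thiolase genes are near-identical copies, which bears on how their reads were divided. Their coding sequences are 1275 bases each, of which 1231 (96.5%) are the same, and the longest identical run is 327 bases over exons 8 to 11. Of the windows of read length in the *Acaa1a* transcript, 12.6% occur unchanged in an *Acaa1b* transcript, and 13.2% of those of *Acaa1b* occur in *Acaa1a*. RSEM divides reads that match both genes by estimate, so the values of both genes can depend on each other. The windows are of single reads and the reads were paired, so these shares do not measure how far. The sequences show a stretch of each kind. The opening 90 coding bases, in exon 1 at chr9:119341515-119341604 (plus strand) for *Acaa1a* and chr9:119156905-119156994 (minus strand) for *Acaa1b* of GRCm38, differ at 3 bases, given in capitals. The shared stretch, of read length, starts the identical run, spans exons 8 and 9, and is coding positions 748 to 898 of either gene.
Acaa1a, opening coding bases: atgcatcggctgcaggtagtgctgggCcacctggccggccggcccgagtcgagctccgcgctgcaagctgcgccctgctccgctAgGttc
Acaa1b, opening coding bases: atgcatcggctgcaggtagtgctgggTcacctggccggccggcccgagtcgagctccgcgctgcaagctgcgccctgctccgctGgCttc
Acaa1a and Acaa1b, shared stretch: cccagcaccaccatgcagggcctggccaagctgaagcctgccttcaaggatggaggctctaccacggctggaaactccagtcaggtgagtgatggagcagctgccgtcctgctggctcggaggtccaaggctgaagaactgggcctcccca

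*Acot3* and *Acot4* encode acyl-CoA thioesterases of the peroxisome. ACOT3 acts on long-chain acyl-CoAs and ACOT4 on succinyl-CoA and other dicarboxylic CoA esters. The genes are neighbours on the plus strand of chromosome 12, *Acot4* at chr12:84038379-84048601 and *Acot3* at chr12:84052144-84060402. *Acot3* had 21.2, 56.7 and 27.2 CPM in WT and 21.4, 14.2 and 26.0 CPM in the KO-labelled livers. WT 2 stood far above every other liver, KO 2 was the lowest, and the remaining 4 livers lay between 21.2 and 27.2 CPM in both genotypes. The log2 fold change was −0.77 (SE 0.37, 95% interval −1.63 to 0.087, edgeR adjusted p = 0.199), and without WT 2 it was −0.24.

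*Acot4* had 97.4, 189 and 131 CPM in WT and 96.1, 70.6 and 129 CPM in the KO-labelled livers. Again WT 2 was the highest and KO 2 the lowest liver, and the values of the replicates numbered 1 and 3 were close between the genotypes. The log2 fold change was −0.50 (SE 0.28, 95% interval −1.14 to 0.15, edgeR adjusted p = 0.261), and over the fits that each left out 1 liver it ranged from −0.76 to −0.21. *Acot4* made up 76.9% to 82.8% of the summed CPM of both genes in WT and 81.8% to 83.3% in the KO-labelled livers (p = 0.3 by the exact permutation test). The coding sequences of *Acot3* and *Acot4* are 74.2% identical, with a longest shared run of 111 bases. No read-length window of *Acot4* occurs in another gene, whereas 11.2% of those of *Acot3* occur in *Acot1*, *Acot5*, *Acot6* or *Gm49366*. Reads of *Acot3* may therefore be divided with these genes, to an extent that was not measured.

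*Acot3* and *Acot4* are the members whose levels varied most between livers, and their upstream sequences are shown for that reason. The windows are the 250 bases before a RefSeq start site of each gene in GRCm38.p6, on the plus strand. They are chr12:84051894-84052143 for *Acot3* and chr12:84038129-84038378 for *Acot4*. RefSeq gave another start site for *Acot3*, whose window chr12:84051901-84052150 is not shown. Capitals mark a match to the hexamer AGGTCA read on the opposite strand, 13 to 8 bases before the start site of *Acot4*.
Acot3, upstream window: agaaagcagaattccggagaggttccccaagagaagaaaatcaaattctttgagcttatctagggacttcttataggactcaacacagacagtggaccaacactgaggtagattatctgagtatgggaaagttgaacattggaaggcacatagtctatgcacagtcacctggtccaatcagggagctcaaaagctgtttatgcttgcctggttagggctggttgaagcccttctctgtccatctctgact
Acot4, upstream window: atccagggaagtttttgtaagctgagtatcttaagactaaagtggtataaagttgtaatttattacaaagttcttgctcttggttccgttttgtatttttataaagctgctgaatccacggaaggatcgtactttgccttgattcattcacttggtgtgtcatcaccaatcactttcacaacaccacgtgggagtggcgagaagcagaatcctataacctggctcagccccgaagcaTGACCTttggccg
The RefSeq promoter table held windows from 250 bases before to 50 bases after a start site for 8 of the 9 genes, all but *Hsd17b4*. Only the 250 bases before the start site were searched. The direct repeat of AGGTCA with 1 base between the copies was present there, on either strand, in 0 of the 8 genes and in 11 of 32851 promoter windows (0.0335%). The same repeat of AGGNCA, with a free base in each hexamer, was present in 0 of the 8 and in 111 windows (0.338%). The single hexamer was found only in *Acot4* among the 8, and in 14.0% of all windows. A match is a description of the letters in these windows and does not show binding. The repeats are rare in all promoter windows, and the lack of a match says nothing of sequence outside the bases searched.

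*Crot* (chr5:8966033-8997324, minus strand) encodes carnitine octanoyltransferase, which makes the medium-chain carnitine esters that carry shortened chains out of the peroxisome. It had 323, 394 and 256 CPM in WT and 301, 286 and 257 CPM in the KO-labelled livers. The KO-labelled livers lay inside the WT range, and the log2 fold change was −0.21 (SE 0.16, 95% interval −0.57 to 0.15, edgeR adjusted p = 0.394). Without WT 2 the log2 fold change of *Crot* was −0.047, and without WT 3 it was −0.35. *Pex11a* (chr7:79735957-79743131, minus strand), the PPARA-inducible member of the PEX11 family that elongates and divides peroxisomes, had 184, 257 and 263 CPM in WT and 252, 222 and 285 CPM in the KO-labelled livers. WT 1 was the lowest and KO 3 the highest liver. *Pex11a* was the only 1 of the 9 with a positive log2 fold change, 0.11 (SE 0.16, 95% interval −0.26 to 0.47, edgeR adjusted p = 0.672), and it was −0.043 without WT 1 and −0.0041 without KO 3.

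**Figure D2:**
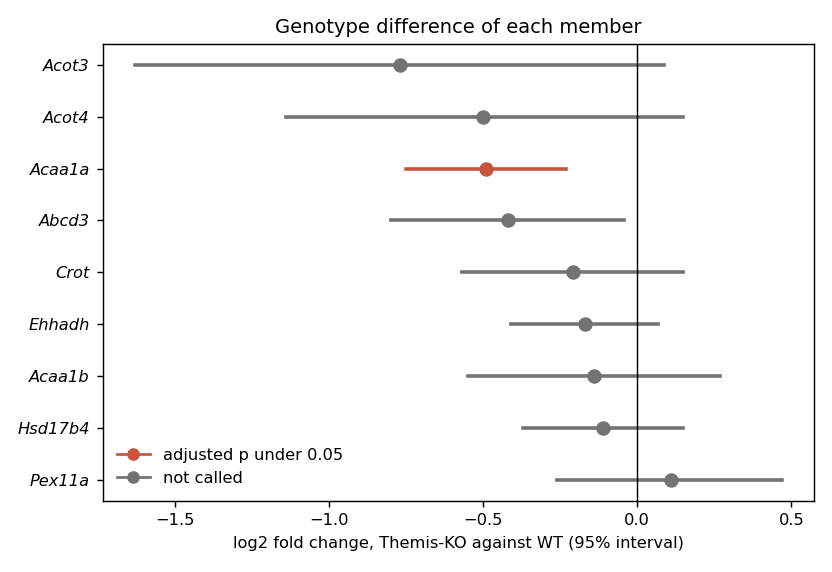
log2 fold change of each of the 9 genes, KO-labelled against WT-labelled livers (points), with the 95% interval of the edgeR fit (lines) on a linear axis. *Acaa1a*, in red, was called, and *Abcd3* is the only other gene whose interval stays below 0, ending at −0.044.

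The highest and the lowest liver were the same for most of the 9 genes, while the order of the other livers varied between them. WT 2 was the highest of the 6 livers for 8 of the 9 genes, all but *Pex11a*, while it was the highest liver for 18.5% of all genes tested. KO 2 was the lowest for 7 of the 9, all but *Crot* and *Pex11a*, beside 18.1% of all genes. Both held for 7 of the 9 genes and for 1193 of the 14496 genes (8.23%). The mean deviation of the 9 genes from their own means, in log2 CPM, was −0.073, 0.44 and 0.057 in WT and −0.12, −0.34 and 0.034 in the KO-labelled livers. WT 2 and KO 2 were the extremes, and the other 4 livers lay between −0.12 and 0.057. *Themis* had WT 2 as its highest and KO 2 as its lowest liver too.

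**Figure D3:**
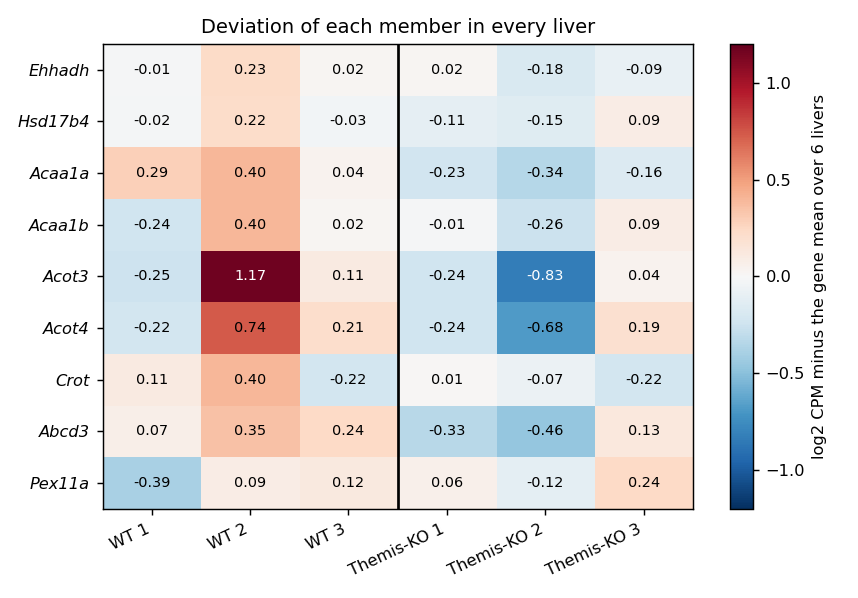
Deviation of log2 CPM from the gene's mean over the 6 livers, for the 9 genes (rows) and the 6 livers (columns), with red above and blue below the mean and the value in each cell. The WT 2 column is above the mean in every row, from 0.09 for *Pex11a* to 1.17 for *Acot3*, and the KO 2 column is below it in every row.

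The genes outside the 9 whose deviations were nearest to that mean profile, by root mean square difference over the 6 livers among 13034 genes with a mean of at least 1 CPM, were *Mgmt* (0.054), *Plcg1* (0.056) and *Hsf4* (0.057). The difference of the members themselves from their mean profile ran from 0.094 for *Acaa1b* to 0.37 for *Acot3*. The 3 genes were picked as the nearest of all those searched, so their smaller differences follow from that choice. None of the 3 nearest genes was called, with log2 fold changes of −0.25, −0.35 and −0.28 and edgeR adjusted p values of 0.352, 0.13 and 0.289.

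Other genes of peroxisomal fatty acid oxidation and of steps linked to it were set beside the 9 genes. Of 28 such genes 27 were tested, *Acot5* having 13 counts in all. Of the 27, 9 (33.3%) were called lower and 1 higher, beside 4.14% and 4.97% of all genes tested. Their median log2 fold change was −0.39. The largest fall of the list was that of *Nudt7*, a peroxisomal CoA diphosphatase, with 364, 279 and 242 CPM in WT and 107, 92.9 and 142 CPM in the KO-labelled livers (log2 fold change −1.38, SE 0.20, edgeR adjusted p = 0.0147). *Hacl1*, the lyase of alpha-oxidation, fell by 0.86, *Amacr*, the racemase for branched chains, by 0.73, *Slc27a2*, a very long chain acyl-CoA synthetase, by 0.62 and *Pecr*, a trans-enoyl-CoA reductase, by 0.61 on the log2 scale. The gene called higher was *Acnat2*, an acyl-CoA N-acyltransferase, with 24.3 to 35.7 CPM in WT and 47.5 to 66.9 CPM in the KO-labelled livers (log2 fold change 0.87, SE 0.17, edgeR adjusted p = 0.0309). Reads shared with other *Acnat* genes were not counted here.

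Of the 18 peroxins and division genes tested, 3 (16.7%) were called lower, beside 4.14% of all genes tested, and 0 higher, with a median of −0.22. Among them were *Pex26* (log2 fold change −0.68), which anchors the import ATPases, and *Pex6* (−0.39), an ATPase of that kind. *Pex6* had 107.5, 101 and 91.1 CPM in WT and 73.3, 75.7 and 79.2 CPM in the KO-labelled livers. Every KO-labelled liver lay below every WT-labelled liver, an arrangement found in 16.9% of all genes tested. Of 17 other peroxisomal proteins tested 6 (35.3%) were called lower and 0 higher, with a median of −0.31. *Agxt* and *Hao1*, of glyoxylate metabolism, had log2 fold changes of −1.13 and −0.52, *Pipox*, a pipecolic acid oxidase, −0.68, *Ephx2*, an epoxide hydrolase, −0.61, *Pxmp2*, a membrane channel, −0.80 and *Gstk1*, a glutathione transferase, −0.53.

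Among 32 PPARA targets outside the 9 genes, most of them of other compartments, 4 (12.5%) were called lower and 0 higher. Beside them, 4.14% of all genes tested were called lower. The median of the 32 was −0.17, and 13 log2 fold changes were positive. The genes called lower were the fatty acid omega-hydroxylases *Cyp4a10* (log2 fold change −1.21) and *Cyp4a32* (−0.90), the acyl-CoA synthetase *Acsl1* (−0.85) and the cytosolic thioesterase *Acot1* (−0.59). *Cyp4a10* had 292, 274 and 159 CPM in WT and 92.5, 101 and 119 CPM in the KO-labelled livers. Each KO-labelled liver was below every WT-labelled liver, as for 16.9% of all genes tested. The *Cyp4a* and *Acot* genes belong to families of similar sequence, so that reads may be divided among relatives. *Ppara* itself had 130, 118 and 122 CPM in WT and 80.1, 78.9 and 99.2 CPM in the KO-labelled livers, all 3 below WT. It was called lower (log2 fold change −0.52, SE 0.11, edgeR adjusted p = 0.0345), as was *Rxra*, its binding partner (−0.42, SE 0.088, edgeR adjusted p = 0.0351), and these were the 2 called of 15 genes for PPARA and its partners, whose median was −0.043.

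**Figure D4:**
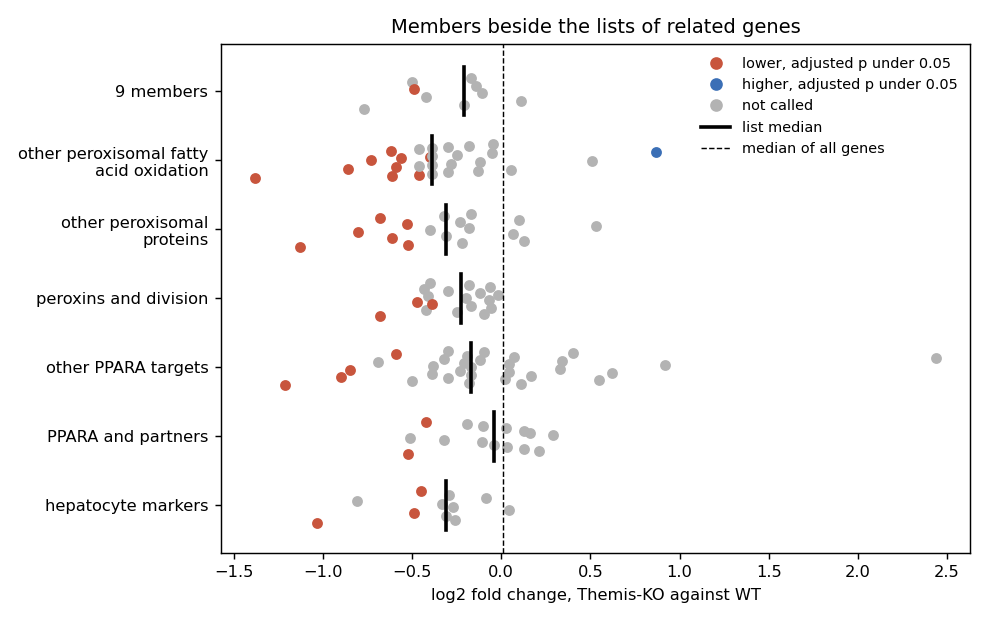
log2 fold changes, KO-labelled against WT-labelled livers, of the 9 genes and of the genes of 6 other lists, 1 point a gene, on a linear axis. Colours mark genes called at an adjusted p under 0.05, thick bars the median of each list and the dashed line the median of all genes (0.0095). The 9 genes lie between −0.77 and 0.11 with 1 called.

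The list counts, like the count over all genes, depended on which livers were in the fit. Left out in turn, WT 1, WT 2, KO 1 or KO 2 brought the number called lower to 0 or 1 in each of the 5 lists. Over all genes tested the number called lower was 32, 57, 12 and 41 in the same fits, beside 600 in the main fit. Without WT 3 the numbers were 9 for other peroxisomal fatty acid oxidation, 2 for peroxins, 6 for other peroxisomal proteins, 4 for other PPARA targets and 0 for PPARA and its partners, and without KO 3 they were 18, 9, 10, 10 and 3. Scaled by total counts alone, without TMM, the numbers were 7, 0, 6, 3 and 1. The number called lower over all genes tested was 369 without WT 3, 2039 without KO 3 and 387 with total counts alone. The number of other PPARA targets called higher, 0, was 2 with total counts alone, 2 without a filter on low counts, 3 in DESeq2 and 3 without KO 3.

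Markers of liver cell types moved with the genotype labels. The summed CPM of 11 hepatocyte markers was 59934 to 67998 in WT and 50489 to 52534 in the KO-labelled livers, without overlap, and 3 of the 11 were called lower with a list median of −0.31. The summed markers of cholangiocytes (9 genes, 172 to 209.8 CPM in WT, 409.8 to 647 in the KO-labelled livers), macrophages (12 genes, 475 to 816, then 828 to 1064) and hepatic stellate cells (11 genes, 437 to 489, then 658 to 716) were higher in every KO-labelled liver. In these lists 3, 3 and 6 genes were called higher and 0 lower. The log2 fold change was negative for 1 cholangiocyte marker (−0.033) and 1 macrophage marker (−1.29). Endothelial markers had 297 to 336.4 CPM in WT and 336.9 to 375 CPM in the KO-labelled livers, so that the genotypes nearly met. Of these 10 genes 1 was called higher and 3 had a negative log2 fold change, with a list median of 0.12. The T cell, B cell, neutrophil and adipocyte sums overlapped. The T cell markers were low, with sums over 8 genes of 4.61 to 6.39 CPM in WT and 4.17 to 8.71 CPM in the KO-labelled livers. Of the 6 T cell markers tested, 1 was called lower and 0 higher. Their log2 fold changes ran from −1.46 to 1.38, and 4 of the 6 were positive. The hepatocyte gene *Tf*, the neutrophil gene *Ly6g* and the adipocyte gene *Lep* were not among the genes listed. No other marker was at 0 in all livers. The adipocyte genes *Adipoq* and *Plin1* had 3 counts each over the 6 livers. In bulk liver RNA, fewer hepatocytes and less RNA of a gene per hepatocyte cannot be told apart, and the part of cell composition in the values of the 9 genes was not tested.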

How the data were processed

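Poly(A) RNA of 3 WT and 3 *Themis*-KO livers was sequenced as paired-end reads. According to the submitters' processing notes, cutadapt 2.3, STAR 2.7.8a, RSEM 1.3.3 and GRCm38 were used. The authors deposited estimated counts, 1 value per gene and liver, as whole numbers without normalization. The annotation release and the rounding are not given in the sources used here.

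In R 4.3.3, edgeR 4.0.16 (limma 3.58.1) was run on all 6 libraries without covariates. The function filterByExpr removed 10907 of 25403 genes, libraries were scaled by TMM, and groups were compared with glmQLFit and glmQLFTest and Benjamini-Hochberg adjustment over 14496 genes. The biological coefficient of variation was 0.157. The fit was tested on simulated data. No pair of libraries agreed within sampling noise (lowest chi-square per degree of freedom 9.8). Nothing in the labels says more of the replicates than their number, so p-values measure the spread between these livers.

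Members and lists were chosen with earlier results of these data known. Genes named are the 9 members, *Themis*, *Ppara*, up to 6 called genes of each list by size of change, and the 3 nearest to the members' mean profile. A few genes meeting this rule are not reported here. *mt-Nd3* and *Gm28438* and cell markers were added for the description of the libraries, *Acot5* and the relatives sharing windows for their counts and sequence. Log2 CPM used a prior count of 2. Coordinates, transcripts and coding sequences came from GENCODE vM21, promoter windows from RefSeq (GRCm38.p6). DESeq2 1.42.0, other scalings, filters and thresholds, the replicate block and each liver left out were alternatives, and the mitochondrial type as covariate was added after the data were seen.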

Additional observations from a re-analysis of the deposited data

How the results depend on the processing

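The number of the 9 genes called lower, 1, was 0 under the replicate block, with the mitochondrial type as covariate, at an adjusted p under 0.01 and with a 2-fold cutoff, and 0 to 2 when each liver was left out in turn. For other peroxisomal fatty acid oxidation genes the number called lower, 9, was 15 in DESeq2, 0 under the replicate block and 0 with the mitochondrial type, and 0 to 18 with each liver left out. The fits without 1 liver leave 2 in a group. *Acaa1a* kept its direction throughout, with log2 fold changes of −0.59 to −0.28. It was called in 6 of 6 settings of scaling, filter or tool, while its edgeR adjusted p was 0.123 under the block, 0.495 with the mitochondrial type, 0.119 to 0.147 without WT 1, WT 2, KO 1 or KO 2, 0.0305 without WT 3 and 0.0167 without KO 3. The sign turned for the log2 ratio of *Ehhadh* to *Hsd17b4* without KO 3 (0.0172), for *Hsd17b4* with total counts alone (0.025), *Acaa1b* without WT 2 (0.049), *Crot* with the mitochondrial type (0.13), and *Pex11a* with the mitochondrial type (−0.058), without WT 1 (−0.043) and without KO 3 (−0.0041), where leaving out each liver gave −0.043 to 0.20 for *Pex11a* and −0.28 to 0.049 for *Acaa1b*. Total counts alone moved the median of all genes from 0.0095 to 0.15 and that of the 9 genes from −0.21 to −0.062. The cause of these changes was not tested.

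Over all genes 600 were called lower and 721 higher. These numbers were 387 and 1449 with total counts alone, 967 and 1212 without a filter, 1090 and 1279 in DESeq2, 45 and 17 under the block, 3 and 0 with the mitochondrial type, and 12 to 2039 and 8 to 2228 with each liver left out. Same-numbered livers did not deviate together (correlations of 0.00028, −0.24 and −0.16). Why calls were lost under the block was not tested. Of the list genes named, *Agxt* alone had an adjusted p under 0.05 with the block (0.0233). With 3 livers a group, the exact test cannot go below 0.1. The members had 329 counts or more in every library. How far depth or the spread between livers set the width of their intervals was not tested.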

Other observations

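Some PPARA targets beside the 9 genes had values that differed widely between livers without a call, and were picked after their values were seen. *Pdk4*, the pyruvate dehydrogenase kinase that rises in fasting, had 13.7, 11.0 and 21.7 CPM in WT and 149, 85.2 and 17.2 CPM in the KO-labelled livers (log2 fold change 2.44, SE 0.67, edgeR adjusted p = 0.0596), so that KO 3 lay within the WT range. *Acot2*, a mitochondrial thioesterase gene near *Acot3* and *Acot4*, had 20.0, 32.0 and 34.6 CPM in WT and 49.1, 40.9 and 36.9 CPM in the KO-labelled livers. Every KO-labelled liver lay above WT, an arrangement found in 17.7% of all genes tested, and the log2 fold change was 0.55 (SE 0.20, edgeR adjusted p = 0.117). *Cyp4a14*, an omega-hydroxylase gene, had 155, 208 and 115 CPM in WT and 85.4, 95.3 and 116 CPM in the KO-labelled livers (log2 fold change −0.69, SE 0.21, edgeR adjusted p = 0.0781).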
